A study of Homo sapiens with 4 samples.

Results

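The combination of 13-cis retinoic acid (13cRA, isotretinoin) and doxazosin was compared with its vehicle in single CHP134 cells, an established human neuroblastoma line from an adrenal tumour mass. The compared cells were 287 that received 13cRA at 5 µM with doxazosin at 10 µM and 353 that received DMSO at 0.04%, both for 24 h. They were chosen by treatment, as the columns of the count table whose names start with RA_ or DMSO, and were kept where they had 500 or more detected genes and no more than 25% mitochondrially encoded counts. These 640 cells are part of 1197 kept cells. The others are 318 cells given 13cRA at 5 µM and 239 given doxazosin at 10 µM for the same time, and their levels are set beside those of the combination. Each treatment was 1 sample of 1 cell line, so the differences below come without replicate error and without a test, and a difference between treatments cannot be told apart from a difference between cultures. Cells of a sample are not replicates.

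Retinoic acid enters the nucleus bound to the carrier protein CRABP2 and binds retinoic acid receptors (RARA, RARB, RARG), which pair with retinoid X receptors (RXRA, RXRB, RXRG) on response elements made of direct repeats of a short motif. Active receptors raise genes of retinoid handling, among them RARB itself and the CYP26 hydroxylases that clear the ligand, and in neuroblastoma cells retinoids slow division and promote neuronal features. Isotretinoin is given to patients with neuroblastoma after intensive therapy. Doxazosin blocks alpha1-adrenergic receptors (ADRA1A, ADRA1B, ADRA1D) and is used for high blood pressure and prostate enlargement.

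Levels are given in CPM, the reads of a gene per 1000000 counts, after summing the kept cells of a library, and a difference is log2((CPM + 1)/(CPM + 1)), combination over DMSO. Summed counts were 72192743 in the combination, 48164169 in DMSO, 22636509 with 13cRA and 46171287 with doxazosin. The 13cRA library was thus the shallowest, with a median of 59200.5 counts per cell. Its median share of mitochondrially encoded counts was 13.2%, against 10.6% in DMSO and 10.1% in the combination. Medians per cell were 221558 and 122615 counts in the combination and in DMSO, so cells were also thinned at random to 34000 counts each before shares of cells were compared, which left 270 and 328 cells and dropped 17 and 25 shallower ones. Intervals are 95% intervals, and for a level they cover only counting error, since reads without molecular identifiers are not independent molecules. For a share they cover only the sampling of cells. In the combination 4 cells held more than 9000 genes, up to 18592, against a maximum of 7822 in DMSO, and these 4 cells gave 3.47% of the library's counts. Cells carry only running numbers in the table, so shared barcodes between libraries could not be counted.

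Most defining markers of sympathetic neuroblastoma were found in the cells, and most were lower in the combination. MYCN, the amplified oncogene of this line, was at 759.6 CPM in DMSO and 815 CPM in the combination. Of 14 defining markers 10 were measured, meaning a mean of the 2 libraries of at least 10 CPM. Of these, 8 were lower and 2 higher in the combination, beside 52.2% of all measured genes lower, with a median of −0.21, and 30.0% of thinned combination cells (24.6 to 35.9%) lay above the DMSO median of the marker score. The catecholamine enzyme genes DBH and DDC and the kinase receptor gene ALK stayed below 3 CPM in both libraries, and TH had no count in either. No listed marker of Schwann cells, leukocytes, endothelium or epithelium was measured. Their summed levels went from 1.45 CPM in DMSO to 0.817 CPM in the combination for the leukocyte markers, from 3.2 to 5.24 CPM for the Schwann cell markers, from 6.6 to 15 CPM for the endothelial markers and from 2.01 to 3.57 CPM for the epithelial markers. Of the 10 fibroblast markers only THY1, which neurons also express, was measured.

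Of 7794 measured genes, 161 (2.07%) were at least 2-fold higher in the combination and 71 (0.911%) at least 2-fold lower. The median difference over all measured genes was −0.02 on the log2 scale, and the middle 50% of genes lay between −0.24 and 0.19. Of the 161 genes, 69 were under 10 CPM in DMSO and counted as measured through the combination. Without the 4 cells of over 9000 genes the counts were 133 (1.71%) higher and 68 (0.875%) lower, of 7772 genes, and 124 of the 161 and 64 of the 71 genes were past 2-fold both ways. For 23 of the 161 genes a single combination cell gave over 50% of the counts. The extreme was PLCG2, a phospholipase of immune signalling, at 44.8 CPM against 0.789 CPM in DMSO and at 0.43 CPM without the 4 cells, and PLCG2 was named after its values were seen.

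**Figure D1:**
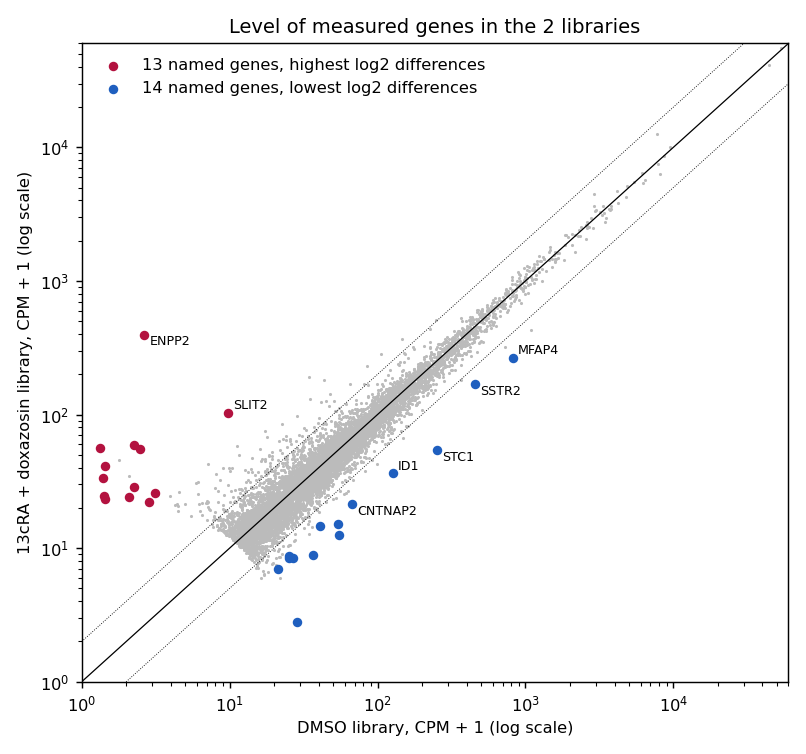
Level of each measured gene in the DMSO library (horizontal axis) and in the 13cRA + doxazosin library (vertical axis), as CPM + 1 on log scales, with the line of equal level and dotted lines at 2-fold. Most genes lie between the dotted lines, while the 13 highest and 14 lowest genes described, in red and blue, lie outside them.

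The genes described next come from the 14 with the highest and the 14 with the lowest log2 difference among 4527 candidates, which had at least 20 CPM and were seen in 20% or more of thinned cells of 1 of the 2 libraries and the same direction in sums, per-cell means and shares. Their differences from DMSO chose them and are given as a description. The last gene inside the higher set was ANGPT1 at 2.96 and the first outside it CLDN10 at 2.95, and the last inside the lower set was SSTR2 at −1.44 and the first outside it HES6 at −1.42.

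A retinoid receptor gene stood among the highest. RARB, the retinoic acid receptor whose own gene is a classic target of the receptors, was at 1.27 CPM in DMSO, 23.6 CPM with 13cRA, 3.27 CPM with doxazosin and 27.6 CPM with both drugs. Both libraries with 13cRA were high and both without it were low. The log2 difference of the combination from DMSO was 3.66, with counting intervals of 26.4 to 28.9 CPM against 0.969 to 1.63 CPM. RARB reads were found in 22.2% of thinned combination cells (17.4 to 27.7%) and 2.13% of thinned DMSO cells (0.862 to 4.35%), so most combination cells had no RARB count at this depth. Without thinning the shares were 31.4% and 3.12%. In cells of matched total counts (148991 to 173033), 46 of DMSO and 21 of the combination, the RARB difference was 0.99, just under 2-fold. These are deeper than most DMSO cells and shallower than most combination cells. In cells called G1, 8 and 26, the RARB difference was 6.18. RARB (ENSG00000077092.19) lies on chromosome 3, from 25174332 to 25597932 on the plus strand, in GENCODE 29 on GRCh38.

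Response elements were searched as direct repeats of AGGTCA or AGTTCA, or of the variants GGGTCA or GGTTCA, in any pairing and with spacers of 1, 2 or 5 bases, on both strands, in promoter windows from RefSeq (GRCh38.p14) that run from 250 bases before to 50 after a start. Such a repeat was found in 0.259% of 35116 windows. Of the 14 highest genes 10 had windows, 13 in all, and 1 window, of RARB, held a repeat. ENPP2, CCN3 and ANGPT1 were among the genes without a window and were not searched. Of the 14 lowest genes 9 had windows, 14 in all, and no window held one. The E-box CACGTG, the site that MYC family proteins bind, was in 7.26% of all windows, in 1 of the 13 and in none of the 14. Among the receptors and retinoid genes looked up in every case, 1 more window, of CYP26A1, held a repeat. Both stretches are shown because these genes carry the same kind of element and had different readouts here. Each is the 250 bases before a start, with the repeated motifs in capitals.
RARB, chr3:25428013-25428262, plus strand: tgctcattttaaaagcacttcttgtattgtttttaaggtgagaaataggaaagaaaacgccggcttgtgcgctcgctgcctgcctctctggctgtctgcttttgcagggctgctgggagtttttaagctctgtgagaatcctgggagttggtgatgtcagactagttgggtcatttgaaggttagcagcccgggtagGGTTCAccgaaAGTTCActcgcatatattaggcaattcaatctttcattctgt
CYP26A1, chr10:93073643-93073892, plus strand: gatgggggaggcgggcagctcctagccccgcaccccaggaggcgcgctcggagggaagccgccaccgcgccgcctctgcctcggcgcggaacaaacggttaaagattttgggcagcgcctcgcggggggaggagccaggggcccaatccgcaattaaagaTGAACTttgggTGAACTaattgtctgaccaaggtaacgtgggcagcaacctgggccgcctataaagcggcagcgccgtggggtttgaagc
The RARB element has a spacer of 5 bases and ends 36 bases before the start, which is an internal start of the gene. The CYP26A1 element has the same spacer, is read on the minus strand and ends 73 bases before the start. RARB differed as given above, whereas CYP26A1, an enzyme that clears retinoic acid, was without a count (0) in each of the 4 libraries, which allows up to 0.0623 CPM in DMSO and 0.0416 CPM in the combination at 3 counts per library. A match in a window is a description of letters and does not show that a receptor binds there.

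CRABP2, STRA6 and RDH11, of retinoid transport and metabolism, were higher too. CRABP2 was at 17.4, 42 and 16.6 CPM in DMSO, 13cRA and doxazosin and at 47.8 CPM in the combination, a log2 difference of 1.41. STRA6, the membrane receptor that takes up retinol, was at 11.4 CPM in DMSO and 22.7 CPM in the combination. RDH11, a retinaldehyde reductase, was at 101.1 and 115 CPM. Of these, CRABP2 was past 2-fold. DHRS3, another retinaldehyde reductase, was low, at 0.249 CPM in DMSO and 2.26 CPM in the combination. CYP26B1 had 4 counts in DMSO and 0 in the combination.

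Among the receptors, RARG was at 6.04 CPM in DMSO, 10.4 CPM with 13cRA, 5.54 CPM with doxazosin and 15.2 CPM in the combination, and was at least 2-fold higher in the combination than in DMSO. RARA was at 6.25 and 7.98 CPM and RXRB at 8.99 and 10.6 CPM in DMSO and the combination, both under the 10 CPM mean. RXRA was at 14.3 and 18.3 CPM, but 41.8% of its combination counts came from 1 cell. Without the 4 cells of over 9000 genes its log2 difference turned from 0.33 to −0.70. RXRG was near 0 in DMSO, with 1 count, and at 2.2 CPM in the combination. RARB and RARG were under 10 CPM in DMSO and counted as measured only through the combination, so no count over the receptor list is read.

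Of 33 retinoid response targets on a list that shares some genes with those above, 12 were measured, 11 were higher and 6 were at least 2-fold higher, against 47.8% and 2.07% of all measured genes. The median was 1.12, beside −0.02 over all genes. The 3 of the 12 measured only through the combination were ENPP2, RARB and DUSP6, and all 3 are among the 6. ENPP2 and RARB were also picked for their difference, so these counts are a description and no independent result. NAV1 and NAV2, which guide neurite growth, were at 83.5 and 46 CPM in DMSO and at 229 and 114.8 CPM in the combination. EGR1, an immediate early transcription factor, was the 1 lower member, at 16.5 CPM in DMSO and 6.91 CPM in the combination. It was measured only through DMSO. DUSP6, a phosphatase of ERK, was at 1.85 and 20.8 CPM, with 55.5% of its combination counts in 1 cell. Scored per thinned cell, 88.9% of combination cells (84.5 to 92.4%) lay above the DMSO median of this list.

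ENPP2, which encodes the secreted lysophospholipase autotaxin, had the highest difference of all. It was at 1.64 CPM in DMSO, 453 CPM with 13cRA, 1.13 CPM with doxazosin and 395 CPM with both drugs, and the ratio of combination to DMSO was 241. A count was present in 70.7% of thinned combination cells (64.9 to 76.1%) and in 5.49% of thinned DMSO cells (3.28 to 8.53%), and in 83.6% and 9.92% without thinning. Autotaxin makes lysophosphatidic acid, and the receptor genes LPAR1 and LPAR2 were near their DMSO level, with differences of −0.01 and 0.28.

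Secreted or matrix proteins are encoded by several of the other highest genes, as they are by STC1, MFAP4, ADAMTS5, PGF and SLIT3 among the lowest. On the list of extracellular matrix and integrin genes, 7 of 15 measured were higher, beside 47.8% of all measured genes, with a median of −0.16, and 2 of the 15 were measured only through the combination. The summed level of the list was 1486 CPM in DMSO and 957 CPM in the combination, of which MFAP4 made up 816.7 and 266 CPM. CCBE1, a matrix protein of lymphatic development, was at 0.332, 66.5, 0.39 and 55 CPM in DMSO, 13cRA, doxazosin and the combination. SPP1, the secreted phosphoprotein osteopontin, was at 0.436, 54.6, 0.108 and 40.5 CPM in the same order. CCN3, a matricellular protein, was at 0.394, 36.3, 1.34 and 32.6 CPM. In each of these the 2 libraries with 13cRA lay above the 2 without it. ANGPT1, a ligand of the TEK receptor, was at 1.87 CPM in DMSO and 21.3 CPM in the combination, and LOXL4, an enzyme that crosslinks collagen, at 2.14 and 25 CPM. SLIT2, a repellent axon guidance ligand, was at 8.72, 164, 5.13 and 102.2 CPM.

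Other genes of the set act inside the cell. RGS16, which speeds the shutdown of G protein signals, was at 1.25, 122, 2.14 and 58.1 CPM in DMSO, 13cRA, doxazosin and the combination. NR0B1, the orphan nuclear receptor DAX1, was at 0.415, 33.3, 1.04 and 23.5 CPM, and PRKCH, a protein kinase C, at 1.1, 12, 0.303 and 23.3 CPM. PRKCH was thus lower with 13cRA alone than with both drugs. PLEKHA6 and PALMD, a junction-associated and a membrane-associated protein, were at 54.1 and 22.5 CPM in the combination and at 1.49 and 0.436 CPM in DMSO. Of 20 regulators of G protein signalling 4 were measured, and RGS16 and RGS8, with differences of 4.72 and 4.05, were measured only through the combination, so no direction is read from this list. For RGS8, 57.9% of the combination counts came from 1 cell.

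**Figure D2:**
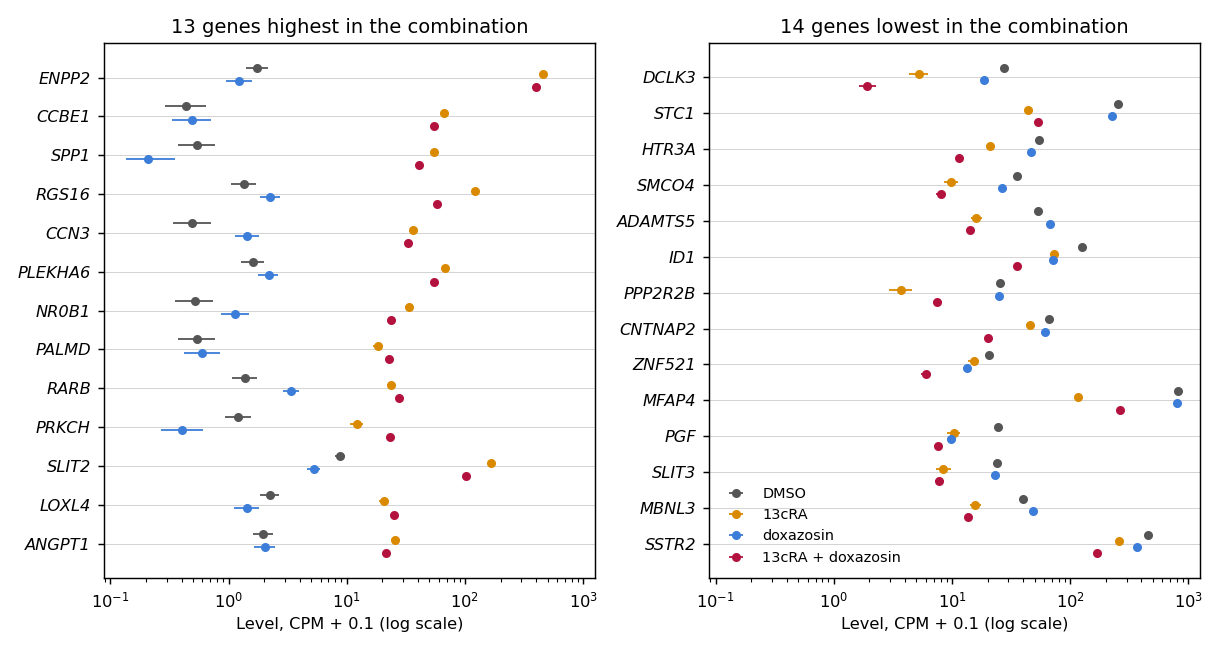
Level of the 13 highest (left) and 14 lowest (right) genes described in the 4 libraries, as CPM + 0.1 on a log axis, with bars for the counting interval. On the left the 13cRA and combination points lie to the right of the DMSO and doxazosin points for every gene, as for ENPP2 at 453 and 395 CPM against 1.64 and 1.13 CPM.

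That each highest gene was seen in many cells follows from the choice, which asked for 20% of thinned cells in 1 library. The number of them that a cell held together is given as a description. Of the 13 genes described, a thinned combination cell held a median of 4 (quartiles 3 and 6), and 43% of cells held at least 5. Among thinned DMSO cells 68.3% held none and no cell held 5 or more. In the combination 10 cells, or 3.7%, held none. With 13cRA alone the median was 4 and 5.22% of cells held none, and with doxazosin alone 64.7% held none. The number varied widely between combination cells, and of the 13 genes ENPP2 and SLIT2 were seen in over 50% of thinned cells.

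**Figure D3:**
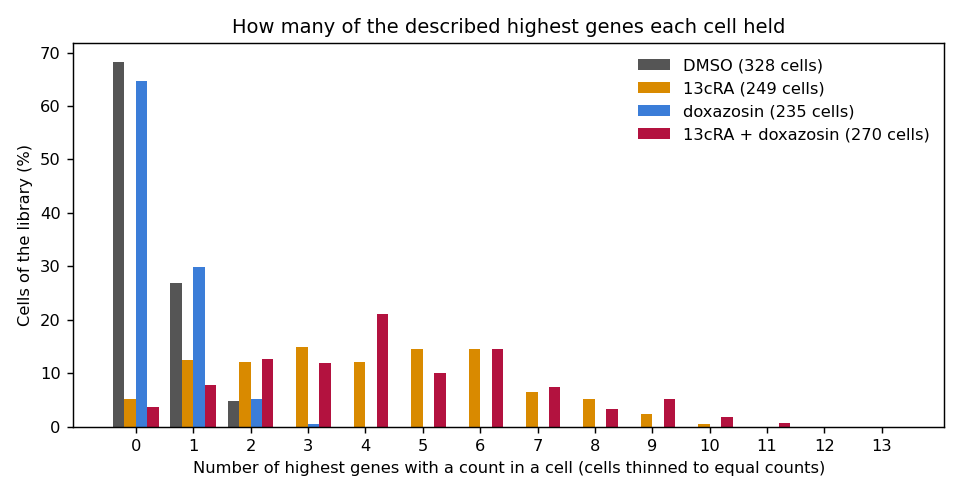
Share of thinned cells in each library (vertical axis, percent) that held a count of 0 to 13 of the 13 highest genes described (horizontal axis). DMSO and doxazosin cells lie at 0 to 3 genes, while the combination is spread around a median of 4.

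**Figure D4:**
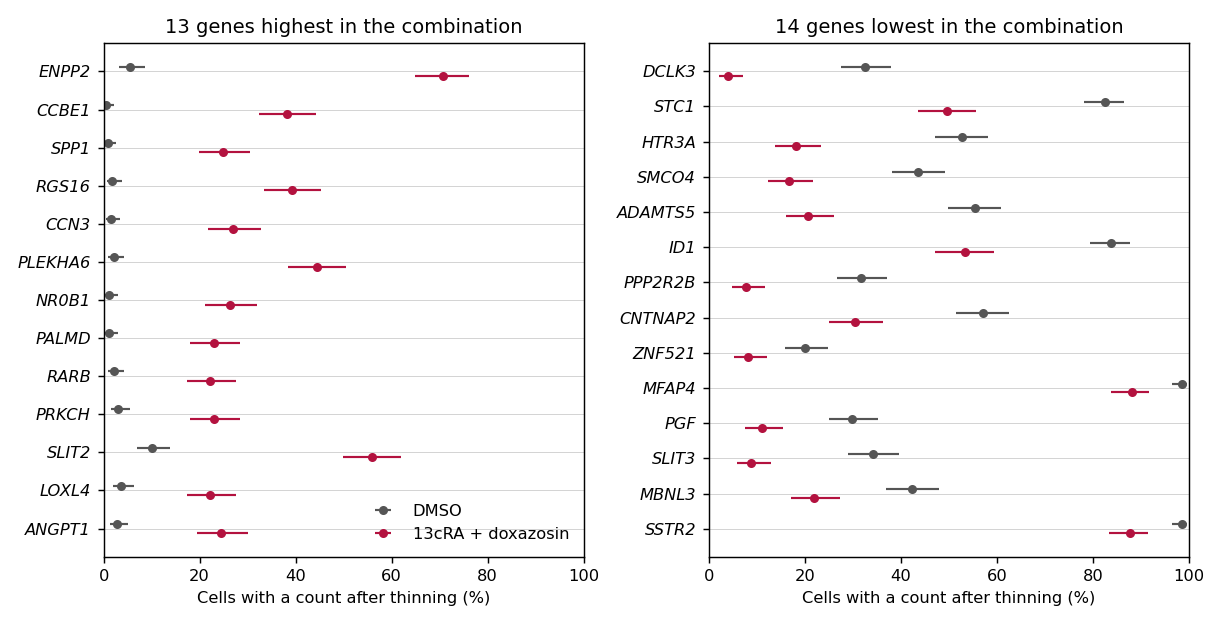
Share of thinned cells with a count of each described gene in DMSO (grey) and the combination (red), with exact binomial intervals. The points of the 2 libraries are apart for each of the 27 genes, from 5.49% against 70.7% for ENPP2 to 98.5% against 87.8% for SSTR2.

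The lowest genes included receptors, secreted factors and a transcription regulator of early progenitors. DCLK3, a doublecortin-like kinase, stood farthest below DMSO, at 27.7 CPM in DMSO, 5.12 CPM with 13cRA, 18.6 CPM with doxazosin and 1.81 CPM with both drugs. Its log2 difference was −3.35, and it was present in 32.6% of thinned DMSO cells and 4.07% of thinned combination cells. DCLK3 (ENSG00000163673.7) lies on chromosome 3, from 36712422 to 36764349, on the minus strand. STC1, the glycoprotein hormone stanniocalcin, was at 251.7, 44.3, 227 and 53 CPM in the same order of libraries. MFAP4, an extracellular matrix protein, was at 816.7, 116.8, 799.9 and 266 CPM, so its combination level lay between those of DMSO and 13cRA. PPP2R2B, a regulatory subunit of protein phosphatase 2A, was at 25.6, 3.58, 24.7 and 7.4 CPM, also between the 2.

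Of the 14 lowest genes, 9 were lower with each drug alone than in DMSO and lowest with both, namely DCLK3, HTR3A, SMCO4, ID1, CNTNAP2, ZNF521, PGF, SLIT3 and SSTR2. All 14 were picked for a low level in the combination, which favours this order, and its share among all measured genes was not counted. For SLIT3 the counting intervals of the combination and 13cRA overlapped, 7.10 to 8.40 and 7.20 to 9.63 CPM. Those of SLIT3 with doxazosin and in DMSO did too, 21.8 to 24.6 and 22.8 to 25.6 CPM. For SMCO4 the combination and 13cRA intervals overlapped, 7.27 to 8.59 and 8.52 to 11.1 CPM. ID1, an inhibitor of differentiation that blocks helix-loop-helix factors, was at 125.4 CPM in DMSO, 72.2 CPM with 13cRA, 71.4 CPM with doxazosin and 35.3 CPM with both drugs, and its share of thinned cells went from 83.8% (79.4 to 87.7%) to 53.3% (47.2 to 59.4%). Without thinning these shares were 88.7% and 74.2%. ID1 (ENSG00000125968.9; chromosome 20, 31605283 to 31606515, plus strand) was thus at similar levels with either drug alone. CNTNAP2, a neuronal adhesion protein, was at 65.8, 45.2, 60.7 and 20.3 CPM, ZNF521, a regulator of progenitor cells, at 20.3, 15.1, 13.3 and 5.96 CPM, and SSTR2, a somatostatin receptor that is imaged in neuroblastoma, at 454.8, 260.7, 368.8 and 167 CPM. HTR3A, a serotonin-gated channel, was at 54.2, 21, 46.5 and 11.5 CPM. In cells called G1, 8 in DMSO and 26 in the combination, HTR3A, MFAP4 and PGF were under 2-fold, at −0.31, −0.63 and −0.94. No test of additivity or interaction was possible with 1 sample per treatment.

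The others among the lowest were ADAMTS5, a protease of cartilage matrix, at 53.2 and 14.2 CPM, SMCO4 at 35.5 and 7.91 CPM, MBNL3, a splicing regulator, at 39.8 and 13.6 CPM, PGF, placental growth factor, at 24.3 and 7.49 CPM, and SLIT3, a repellent ligand like SLIT2, at 24.1 and 7.73 CPM in DMSO and the combination. SLIT2 and SLIT3 thus differed in opposite directions, although SLIT3 turned to 0.84 in cells called G1. Of 11 measured axon guidance genes, 4 were higher and 7 lower, beside 52.2% of all measured genes lower, and SEMA3A and PLXNA1, a guidance ligand and a semaphorin receptor, were at 15.7 and 32.9 CPM in DMSO and 5.75 and 14.2 CPM in the combination. SLIT3 and SEMA3A were measured only through DMSO and SLIT2 only through the combination, so no direction is read from this list.

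Genes of DNA replication were lower together. Of 43 measured S phase genes, 38 were lower and 5 higher, none of them 2-fold, against 52.2% of all measured genes lower. The median was −0.38 on the log2 scale. EXO1, an exonuclease of DNA repair and replication, was at 105.9 CPM in DMSO and 62.7 CPM in the combination, FEN1, which trims Okazaki fragments, at 236 and 145 CPM, and MCM4 and MCM5, subunits of the replicative helicase, at 472.9 and 162.7 CPM against 293 and 99.9 CPM. Single-drug medians were −0.62 for 13cRA and −0.13 for doxazosin. Of 53 measured G2M genes 40 were lower, with a median of −0.16, and MKI67, the proliferation marker, was at 96.3 and 99.6 CPM. Among 13 measured G1 regulators 12 were lower (median −0.38), led by E2F2, a transcription factor of the G1/S transition, at 59.7 and 24.9 CPM.

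Phases called from the S and G2M lists on thinned cells also differed. S was called for 39.3% of DMSO cells (34.0 to 44.8%) and 23% of combination cells (18.1 to 28.4%), and G1 for 2.44% (1.06 to 4.75%) and 9.63% (6.39 to 13.8%). G2M was called for 58.2% (52.7 to 63.6%) and 67.4% (61.5 to 73%). Without thinning, S was called for 38.5% of DMSO and 24.0% of combination cells, and G1 for 1.98% and 6.62%. In the single-drug libraries S was called for 20.5% of cells with 13cRA and 34% with doxazosin. These calls place cells relative to the cells scored with them, so the small G1 class is no measure of the share of resting cells. A cell not called G1 goes to the higher of its S and G2M scores. The larger G2M share is therefore no measure of more cells in G2 or mitosis. Of the combination cells 30.0% lay above the DMSO median of the S phase score and 46.7% above that of the G2M score.

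Genes that hold back the cell cycle were less uniform. Of 12 measured CDK inhibitors and cell cycle exit genes 8 were higher and 3 at least 2-fold, beside 47.8% and 2.07% of all measured genes, with a median of 0.32. FOXO3, a transcription factor of quiescence and stress resistance, was at 22 CPM in DMSO, 138.7 CPM with 13cRA, 17.1 CPM with doxazosin and 65 CPM with both drugs. CCNG2, a cyclin that inhibits cycling, was at 6.08, 15.2, 13.2 and 19.4 CPM, and GADD45A, a growth arrest gene, at 17, 54.5, 19.6 and 36.1 CPM. CCNG2, 1 of the 3 genes past 2-fold, was measured only through the combination. CDKN1B, the inhibitor p27, was at 52.1 and 67 CPM in DMSO and the combination, and CDKN1A, the inhibitor p21, at 73.1 and 61.3 CPM. Of 16 measured p53 targets 7 were higher and 9 lower, near the 47.8% of all measured genes that were higher, with TP53INP1 and PLK2 at 1.93 and 1.91 and AEN at −0.74.

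The neuronal and noradrenergic genes did not share a direction. Of 34 measured neuronal genes 18 were higher and 16 lower, near the 47.8% higher of all measured genes, with a median of 0.05. SCG2, a secretory granule protein, was at 33.4, 245, 42 and 188.7 CPM in DMSO, 13cRA, doxazosin and the combination, and was seen in 29% of thinned DMSO cells and 71.5% of thinned combination cells. CRMP1, a mediator of growth cone collapse, was at 247 and 507 CPM in DMSO and the combination. STMN4, a stathmin of neurons, was at 2.95 and 23.4 CPM, but its log2 difference of 2.63 was 1.43 without the 4 cells of over 9000 genes. Among 16 measured transcription factors of the noradrenergic state, 10 were lower, beside 52.2% of all, with a median of −0.06. ISL1, a homeobox factor of sympathetic neurons, was at 54.4, 11.9, 49.3 and 26 CPM, and was seen in 51.8% of thinned DMSO cells, and 1 cell held 46.7% of its combination counts. PHOX2A, a homeobox factor of the same lineage, was at 21.4 and 12.3 CPM, and INSM1, a zinc finger factor of neuroendocrine cells, at 13.7 and 23.3 CPM. MYCN differed from DMSO by 0.10. ISL1 and PHOX2A thus lay farther from DMSO than MYCN.

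**Figure D5:**
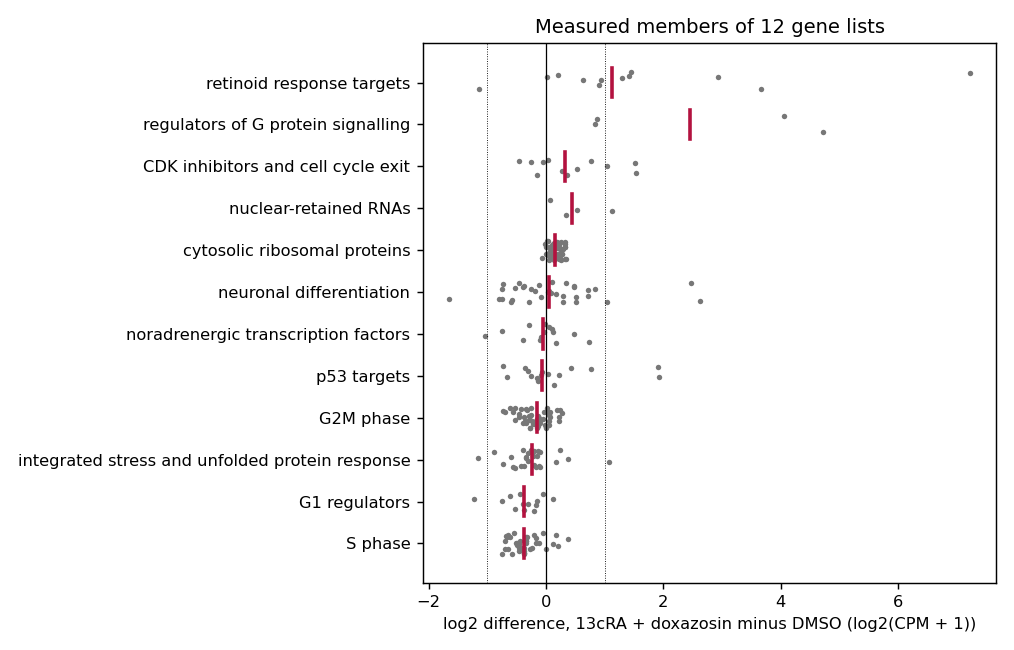
Log2 difference between combination and DMSO (horizontal axis, each point 1 measured gene) for 12 gene lists, with a red bar at the median and dotted lines at 2-fold. The retinoid response targets extend to 7.23 around a median of 1.12, and the S phase genes lie around −0.38.

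Most genes of the integrated stress and unfolded protein response were lower in the combination and most ribosomal protein genes higher, by small amounts. Of 28 measured genes of the first list, 24 were lower, beside 52.2% of all measured genes, with a median of −0.24, and SDF2L1, PDIA6 and PDIA4, which fold proteins in the endoplasmic reticulum, had differences of −1.15, −0.89 and −0.73. DDIT4, an inhibitor of mTORC1, was higher, at 79.4 and 168.8 CPM. Cytosolic ribosomal protein genes were higher in 66 of 71 cases, beside 47.8% of all measured genes, with a median of 0.16 that was 0.0797 in cells of matched total counts and 0.002 in cells called G1. Among ID, BMP and TGF-beta genes, SKIL, a repressor of TGF-beta signals, was at 46.4, 120.7, 50.9 and 141.6 CPM. ADRA1A, ADRA1B and ADRA1D, the receptors that doxazosin blocks, were at or below 0.152 CPM in all 4 libraries. The 4 measured nuclear-retained RNAs, a sign of RNA quality, were higher with a median of 0.44, beside 47.8% of all measured genes higher. Of these 4, 1 was measured only through the combination. MALAT1 among them was at 981 and 1245 CPM, and the 13 mitochondrial mRNAs had a median of −0.07. Against DMSO these 2 medians were 1.42 and 0.65 in the 13cRA library and 0.12 and 0.05 in the doxazosin library. The 13cRA levels given above come from that library. The part of these and of depth in the differences above was not tested.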

How the data were processed

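Single-cell RNA sequencing was done on CHP134 cells in 4 samples, 1 per treatment. Wells with single live cells were picked by imaging, and full-length libraries were made on 1 chip, per the labels' protocols. The values are deposited raw counts of reads, 60651 gene IDs by 1287 cells. Tools named in the submitters' processing notes are STAR 2.7.8a, featureCounts, fastp 0.23.3, bcl2fastq and Seurat 4.3.0, beside GRCh37 and GRCh38.p13 as builds of unstated role. Annotation release, strandedness and the authors' cell filter are not given in the sources used, so antisense genes and near-identical paralogs are uncertain. Sums over the kept cells of a sample were scaled to CPM, and differences used a pseudocount of 1 CPM. Genes counted as measured at a mean of 2 libraries of at least 10 CPM. No test was run, because there is 1 sample per group. Named genes were the 14 highest and 14 lowest candidates, up to 4 measured members per list with the largest difference, receptors and other preset genes, and list members at 0. Some picked genes and list members are not reported here. Members and lists were chosen with earlier results of these data known. Shares and scores used cells thinned to 34000 counts, and phases came from scanpy 1.11.5. No doublet caller was run. Alternatives used edgeR 4.0.16 and DESeq2 1.42.0 scaling factors. The fold arithmetic was checked on simulated counts, which tests the scripts and not the differences.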

Additional observations from a re-analysis of the deposited data

How the results depend on the processing

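With 1 sample per treatment no difference can be checked against replicates, and depth limits low genes: 3 counts are 0.0623 CPM in DMSO and 0.0416 CPM in the combination. No paired analysis was possible because each treatment has 1 sample. The count of genes at least 2-fold higher, 161, was 107 with the mean of per-cell CPM, 1225 in cells called G1, 345 in cells of matched total counts and 640 with no filter on low genes. The count lower, 71, was 42 with a pseudocount of 5 CPM and 1461, 407 and 354 under the last 3. G1 cells numbered 8 in DMSO and 26 in the combination, and matched cells 46 and 21. Matched cells lay between the lower quartile of the combination and the upper quartile of DMSO, 148991 to 173033 counts. They are thus deeper than most DMSO cells and shallower than most combination cells. In G1 cells the medians turned to 0.10 for S phase, 0.46 for G2M and 0.017 for MYC target genes, went to −0.37 for CDK inhibitors and to −0.52 for noradrenergic factors, and SLIT3 turned to 0.84. G1 was called from low scores on the S phase and G2M lists themselves. The medians of those lists in G1 cells therefore cannot show whether their differences hold. The genes described were picked for large differences in sums and for the same direction in per-cell means and shares of thinned cells. The edgeR and DESeq2 factors only rescale those sums. Agreement under these settings was thus largely set by the choice and is no independent support. The 27 genes described stayed past 2-fold in their direction under 8 of 10 settings. In G1 cells 23 did, HTR3A, MFAP4 and PGF falling to −0.31, −0.63 and −0.94, and RGS16 going from 4.72 to 1.99. In matched cells 26 did, RARB falling from 3.66 to 0.99, with NR0B1 at 2.03 and LOXL4 at 1.65 against 4.11 and 3.05. Moves of over 1.5 times were seen for 22 of the 27 in G1 cells, 9 in matched cells, 13 with a pseudocount of 5 CPM and 1 over thinned cells. The median of ribosomal protein genes, 0.16, was 0.11 with DESeq2 size factors and over thinned cells. The S phase median was −0.29 with the mean of per-cell CPM, −0.32 over thinned cells and −0.47 in matched cells, and the G2M median −0.10 over thinned cells and −0.020 in matched cells. At 68000 counts per cell 52.6% of DMSO cells were called G2M. The cause of these shifts was not tested. Leaving out cells of over 9000 genes was chosen after seeing the data.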

Other observations

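Single genes of the iron handling, Notch, and glycolysis and hypoxia lists lay away from their DMSO level. Of 7 measured iron handling genes 4 were higher and 3 lower, with a median of 0.07. FTH1, the ferritin heavy chain, was at 146.6 CPM in DMSO, 40.8 CPM with 13cRA, 95.3 CPM with doxazosin and 65.8 CPM with both drugs, and FTL, the light chain, at 882.9, 849.7, 904.9 and 1173 CPM. The heavy chain was lower in all 3 treated libraries, while the light chain was highest in the combination. HES6, a Notch pathway repressor of neurogenic cells, was at 33.3, 21, 25.9 and 11.8 CPM. EGLN3, an oxygen-sensing hydroxylase, was at 3.24, 24, 3.01 and 19.9 CPM, and ALDOC, a brain aldolase, at 70.5, 97.8, 100.6 and 128.3 CPM. Of 27 measured glycolysis and hypoxia genes 17 were higher, with a median of 0.04, against 47.8% of all measured genes higher. EGLN3 was measured only through the combination. The list median was −0.19 in cells of matched total counts and −0.0061 with DESeq2 size factors. Over thinned cells it was 0.09 and in cells called G1 0.32, so no direction is read from this list.

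The mesenchymal genes did not share a direction. VIM, an intermediate filament protein, was at 365.8 CPM in DMSO and 234.9 CPM in the combination, and CDH2, N-cadherin, at 42.5 and 24.9 CPM. SNAI1, a repressor of epithelial genes, was at 30.4 and 60.2 CPM and ANXA2, a membrane-binding annexin, at 225 and 312 CPM. HOXC4, a homeobox transcription factor, was at 12.4, 31.3, 10 and 31.6 CPM in DMSO, 13cRA, doxazosin and the combination, and MAOA, which breaks down monoamines, at 7.33, 18.1, 10.4 and 21.1 CPM.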
